A study of Mus musculus with 8 samples.

Results

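T cell receptor segments were examined in RNA sequencing counts from mouse CD8+ T cells of the OT-I genotype. OT-I is a transgenic line whose T cells recognise an ovalbumin peptide, SIINFEKL. Segments were taken as table rows whose gene symbol named a variable (V), diversity, joining or constant segment of an alpha, beta, gamma or delta chain. Of 41730 rows, 15 met this description: 13 V segments of the alpha chain, the alpha constant gene (Trac_1) and the delta constant gene (Trdc_1). The 13 V rows matched with their names as written, and the constant rows matched once a numbered suffix was removed. Beta and gamma chain segments and all joining and diversity segments were not analysed here. All 8 samples were OT-I T cells sorted after culture with SIINFEKL-pulsed bone marrow-derived dendritic cells that lacked the liver X receptors (LXR-/-). The 4 control samples received DMSO, and the other 4 received 2 uM RGX-104, a synthetic LXR agonist. The LXR genotype of the T cells is not stated beyond OT-I. The labels give neither the age nor the number of the animals, nor whether samples were separate cultures. The p-values therefore describe the spread among these samples, and that spread may be technical.

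A T cell assembles the variable part of each receptor chain by joining gene segments in the thymus, and splices it to a constant region. The receptor binds peptide on a major histocompatibility molecule, while the associated CD3 proteins carry the signal and CD8 binds the same molecule. In OT-I mice the transgenic chains use the V alpha 2 and V beta 5 families, and V alpha 2 corresponds to Trav14. The delta constant gene lies inside the alpha locus and is normally used by gamma delta T cells.

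All 15 segment rows ended in a numbered suffix. The table held 2379 rows of that form, of which 2339 stood beside a row of the same name without the suffix, but 0 of the 15 segment rows did. Which genomic copy such a row counts is not given in the sources used here. A level given below is therefore that of the counted copy and need not be the whole RNA of the gene.

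The V alpha 2 family is shown first because its members are so alike that a read can fit several of them. The sequences are the mature V regions in the GENCODE annotation of GRCm38, 5′ to 3′, and may differ from the counted copies. Capitals mark bases that differ from Trav14d-1, which is therefore all in lower case.
Trav14d-1: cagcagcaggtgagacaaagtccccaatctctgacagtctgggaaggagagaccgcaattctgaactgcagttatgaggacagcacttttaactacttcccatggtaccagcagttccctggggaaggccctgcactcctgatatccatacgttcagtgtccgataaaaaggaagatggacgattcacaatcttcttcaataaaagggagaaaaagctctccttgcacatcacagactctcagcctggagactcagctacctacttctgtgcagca
Trav14d-2: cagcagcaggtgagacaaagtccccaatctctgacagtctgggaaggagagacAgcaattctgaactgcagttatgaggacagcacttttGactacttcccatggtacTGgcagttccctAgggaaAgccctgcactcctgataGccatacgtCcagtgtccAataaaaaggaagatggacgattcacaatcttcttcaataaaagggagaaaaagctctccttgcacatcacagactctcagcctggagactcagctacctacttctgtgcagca
Trav14d-3-dv8: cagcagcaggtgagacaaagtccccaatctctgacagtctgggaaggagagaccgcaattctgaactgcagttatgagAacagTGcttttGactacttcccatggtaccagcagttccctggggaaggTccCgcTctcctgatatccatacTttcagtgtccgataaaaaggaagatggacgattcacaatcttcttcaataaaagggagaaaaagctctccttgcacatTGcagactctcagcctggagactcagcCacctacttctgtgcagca
Each region was 276 bases long. Trav14d-2 differed from Trav14d-1 at 9 bases (96.7% identity) and Trav14d-3-dv8 at 11 (96.0% identity). Counted from 1 at the first base shown, the differences of Trav14d-2 ran from C54A to G163A, and those of Trav14d-3-dv8 from G79A to T258C. The change A91G was found in both. In GRCm38 all 3 lie on the plus strand of chromosome 14, Trav14d-1 from 52855614 to 52856166, Trav14d-2 from 52948568 to 52949169 and Trav14d-3-dv8 from 53078452 to 53079045, each annotated as a V gene with a leader exon and a V exon.

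The first exons of the constant genes are shown because these genes held nearly all segment counts. Trac joins every alpha chain V region and Trdc every delta chain V region.
Trac: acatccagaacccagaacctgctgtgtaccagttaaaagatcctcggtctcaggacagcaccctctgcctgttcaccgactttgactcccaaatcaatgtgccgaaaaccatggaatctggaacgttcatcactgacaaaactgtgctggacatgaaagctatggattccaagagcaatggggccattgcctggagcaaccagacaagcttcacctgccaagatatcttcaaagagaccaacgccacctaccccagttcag
Trdc: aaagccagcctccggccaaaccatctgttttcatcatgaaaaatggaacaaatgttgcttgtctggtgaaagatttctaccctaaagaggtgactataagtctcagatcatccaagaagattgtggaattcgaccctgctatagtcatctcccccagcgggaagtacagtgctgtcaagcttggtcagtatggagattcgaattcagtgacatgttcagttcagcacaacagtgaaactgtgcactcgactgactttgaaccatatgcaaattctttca
Both genes lie on the plus strand of chromosome 14, Trdc from 54142851 to 54148868 and Trac from 54220521 to 54224206. Their transcripts shared 0 windows of 50 bases, so no 50-base stretch of one occurs in the other.

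Similarity was measured over whole V transcripts as the share of 50-base windows found in no other Trav segment of the annotation. Of the 13 V segments, 12 were matched by symbol, and the exception was Trav7d-6. Of these 12, 7 had no window of their own: Trav12d-1, Trav14d-1, Trav9d-3, Trav12d-3, Trav14d-2, Trav3d-3 and Trav4d-4. Each of the 7 shared all its windows with a segment of the n series, such as Trav14n-1 for Trav14d-1 and Trav14n-2 for Trav14d-2. Names with d or n belong to duplicated stretches of the alpha locus. Over all 128 Trav segments of the annotation, 39 (30.5%) had no window of their own. Windows of 100 bases gave the same number, 7 of 12, against 29.7% of all Trav segments. Trav18 stood at the other end, with all 325 of its 50-base windows found nowhere else among Trav segments, and Trav14d-3-dv8 had 61.2%. Neither the length of the reads nor the treatment of reads that fit several places is stated in the labels.

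**Figure D1:**
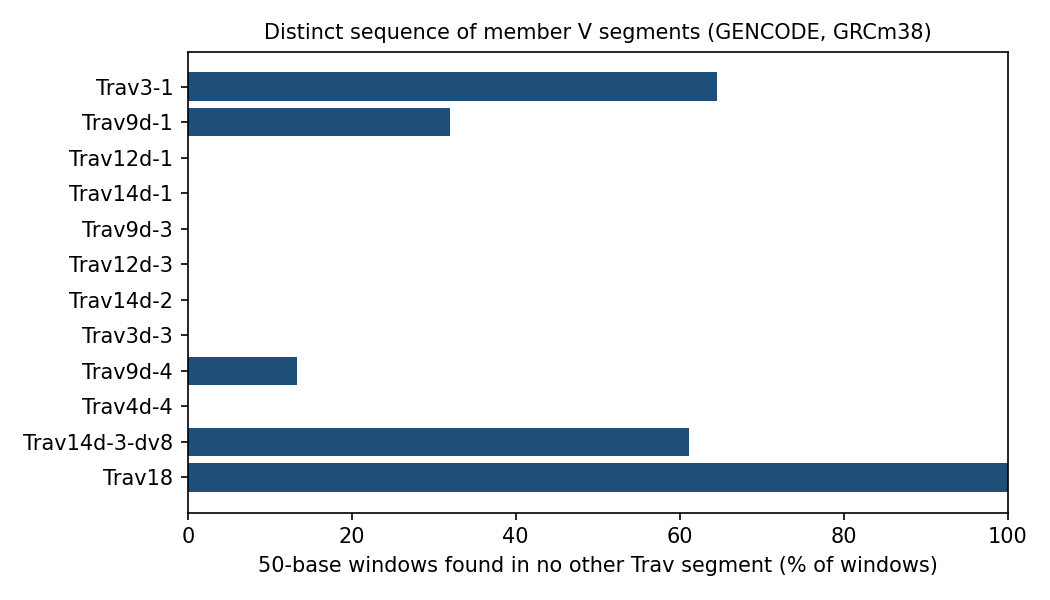
Share of 50-base windows of each V segment (percent of its windows, horizontal axis) that occur in no other Trav segment of the GENCODE annotation of GRCm38. For 7 of 12 segments the bar is at 0, Trav14d-3-dv8 reaches 61.2%, and the bar of Trav18 fills the axis.

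Library totals ranged from 30642316 to 37714355 counts. Cd8a and Cd8b1, which encode the CD8 coreceptor, had at least 24870 and 13217 counts in every library, whereas Cd4 had at most 14. No 2 libraries of a group agreed within counting noise (chi-square per degree of freedom 1.36 to 6.77, lowest for RGX-104 replicates 2 and 3). Libraries were therefore not merged for any test.

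The segments made up a small part of each library. Together they held 0.00777% to 0.00835% of all counts in the control libraries and 0.00796% to 0.00829% in the RGX-104 libraries, so the ranges overlapped. In bulk samples, fewer cells of a type and less RNA per cell cannot be told apart. Trac_1 supplied 86.3% to 87.2% of the segment counts in control libraries and 84.7% to 86.5% with RGX-104. Trdc_1 supplied 11.8% to 12.9% and 12.6% to 14.2%. The V segments supplied the remaining 0.851% to 1.05% and 0.662% to 1.11%. In each of these shares the groups overlapped. The shares for Trac_1 and Trdc_1 move against each other by construction, because they share a denominator.

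The 15 rows differed widely in depth. Only Trac_1, Trdc_1 and Trav14d-1_1 had at least 10 counts in every library, and the same 3 passed the filter on low counts. Of the other 12 V rows, Trav3-1_1 and Trav3d-3_1 had 0 counts throughout, which allows up to 3 counts or 0.011 CPM over the 8 libraries together. CPM here means counts scaled to library size. A further 6 rows had 1 to 5 counts in all libraries together, and 4 had 11 to 41. Such limits cover counting error only.

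For Trac_1, the alpha chain constant gene, the groups differed by less than the spread between libraries. In control replicates 1 to 4 it was at 67.4, 69.2, 72.2 and 69.3 CPM, and in RGX-104 replicates 1 to 4 at 66.8, 70.1, 68.4 and 71.7 CPM. The groups interleaved, with the lowest library in the RGX-104 group and the highest in the control group. Means were 69.5 ± 1.95 and 69.3 ± 2.09 CPM (SD, n = 4). The fitted log2 change was -0.01 ± 0.03 (SE), with a 95% interval of -0.07 to 0.06 (edgeR adjusted p = 0.940). That interval spans changes from -5.04% to 4.47%.

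Trdc_1, the delta chain constant gene, was at 9.32, 9.69, 10.8 and 9.35 CPM in control replicates 1 to 4. With RGX-104 it was at 11.2, 10.2, 10.5 and 10.5 CPM. Among control libraries, replicates 1, 2 and 4 lay below every RGX-104 library, and replicate 3 lay among them. Means were 9.78 ± 0.673 and 10.6 ± 0.424 CPM (SD, n = 4), and the log2 change was 0.11 ± 0.07 (SE; 95% interval -0.02 to 0.25; edgeR adjusted p = 0.335). The difference did not pass the test, and an increase of up to 19.0% lies within its interval. Without control replicate 3 the log2 change was 0.16 (edgeR adjusted p = 0.197). Per kilobase of annotated exon, its control level was 2.53 ± 0.174 CPM and its RGX-104 level 2.74 ± 0.110 CPM. On that scale Trac_1 was at 74.4 ± 2.09 and 74.1 ± 2.24 CPM, far above Trdc_1 in both groups. The lengths used are those of all annotated exons merged, 3865 bases for Trdc and 935 for Trac. The gap is therefore wider per kilobase than in CPM.

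Other markers of gamma delta T cells were low where analysed, and the gamma constant genes were not among those. Of 11 listed, 3 had a row that was analysed: Sox13, a transcription factor gene, with 28 to 49 counts, Blk, a kinase gene, with 1 to 7, and Cd163l1, a scavenger receptor gene, with 9 to 17. Their summed level ranged from 1.27 to 1.78 CPM in the control group and from 1.36 to 1.79 CPM in the RGX-104 group, so the groups overlapped. Sox13 also has a copy row. Sox13 and Cd163l1 were tested and did not pass (edgeR adjusted p = 0.934 and 0.433). The part of such cells in the Trdc_1 counts was not tested.

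**Figure D2:**
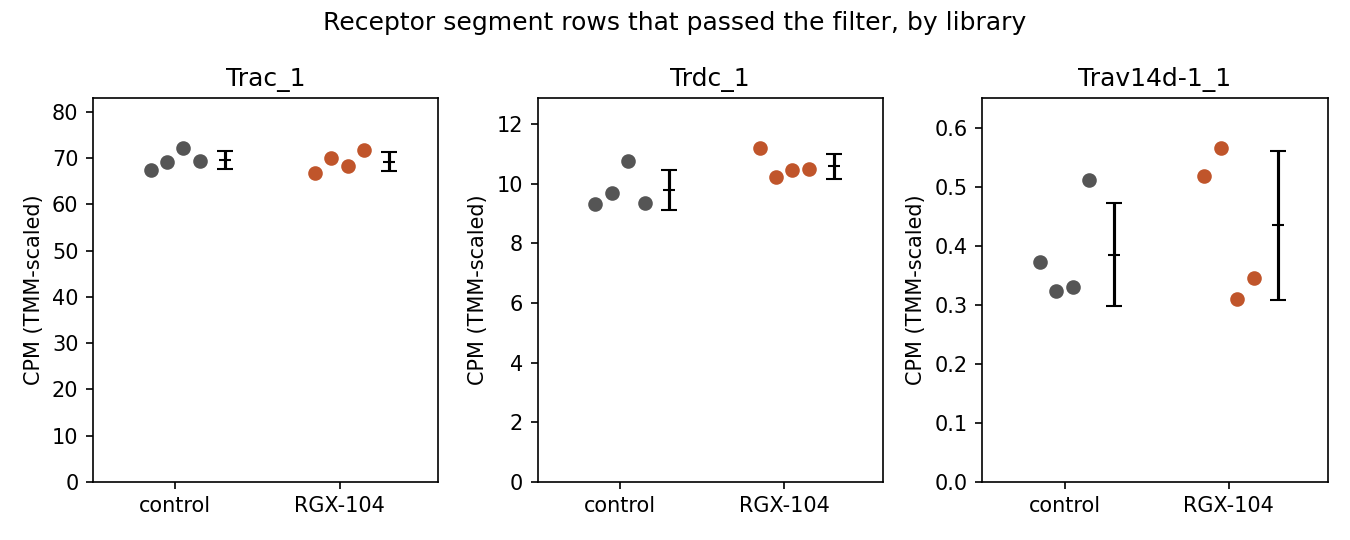
Level of the 3 segment rows that passed the filter (CPM, vertical axis from 0) in the 4 control and 4 RGX-104 libraries. Points are libraries, and the bar beside them is the mean with its SD. The groups overlap in every panel, and Trac_1 sits between 66.8 and 72.2 CPM throughout.

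Trav14d-1_1, of the V alpha 2 family, was the V row with most counts, 112 in all. It had 13, 11, 12 and 19 counts in control replicates 1 to 4 and 16, 20, 10 and 11 in RGX-104 replicates 1 to 4. These are 0.324 to 0.512 CPM and 0.309 to 0.566 CPM, and the groups overlapped. The log2 change was 0.17 ± 0.29 (SE; 95% interval -0.42 to 0.77; edgeR adjusted p = 0.780). With so few counts, changes from -25.5% to 70.8% lie within the interval, so a moderate difference was not detectable at this depth. Per kilobase of annotated exon Trav14d-1_1 was at 0.927 ± 0.210 CPM in control libraries, far below Trac_1. Trav14d-1 shared all its 50-base windows with Trav14n-1, so this level need not be that of all V alpha 2 RNA.

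Trav14d-2_1, of the same family, followed with 41 counts. It had 8, 5, 8 and 1 in control and 4, 7, 5 and 3 in RGX-104 libraries, and control replicate 4 held the fewest. Trav14d-3-dv8_1 had 0 counts in every control library and in RGX-104 replicates 1 and 3, with 2 in replicate 2 and 1 in replicate 4. Its counts are at or under the limit that a count of 0 allows, so no fold is given.

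Rows of Trav14 held most V counts although they were 3 of 13 V rows. They took 156 of 204 V counts (76.5%) summed over the 8 libraries. In control libraries the Trav14 share was 80.8%, 69.6%, 74.1% and 64.5% of 26, 23, 27 and 31 V counts, and in RGX-104 libraries 74.1%, 90.6%, 88.2% and 71.4% of 27, 32, 17 and 21. The groups overlapped, and Trav14 held more than all other V rows together in every library. Pooled by group the share was 72.0% (62.5% to 80.2%) in control and 81.4% (72.3% to 88.6%) in RGX-104 libraries. The brackets are exact 95% intervals for counts summed over the libraries of a group. They cover counting error only and leave out differences between libraries, so they do not compare the groups. V alpha 2 is the family of the OT-I receptor, and it led the counts of these 13 rows in all 8 libraries. The annotation holds 128 Trav segments, 9 of them Trav14, and Trav14d-1 and Trav14d-2 had no window of their own. The share is therefore that of the 13 rows and need not be the V use of the cells. No conclusion on the receptor is drawn from it.

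The other 10 V rows shared 30 counts in control and 18 in RGX-104 libraries. Trav12d-3_1 had the most, with 1, 3, 2 and 6 counts in control and 2, 0, 1 and 1 in RGX-104 libraries. Trav9d-4_1 had 1 count in each control library and 3, 1, 0 and 3 in RGX-104 libraries. Trav7d-6_1 had 11 counts, with at most 3 in a library. Trav12d-1_1 had 5 counts, Trav9d-3_1 had 2, and Trav9d-1_1, Trav4d-4_1 and Trav18_1 had 1 each. With 0 to 6 counts per library, differences among these rows were not detectable at this depth.

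**Figure D3:**
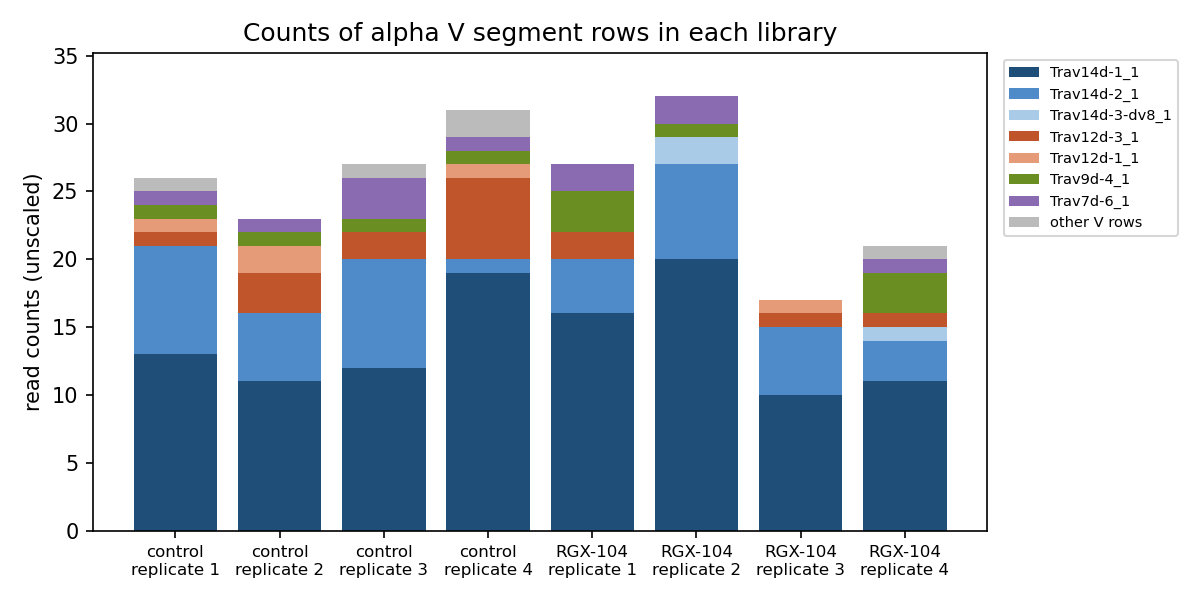
Read counts (not scaled, vertical axis) of the alpha V rows in each library, stacked by row. The blue parts are the 3 Trav14 rows, which fill more of every bar than the other V rows, in totals of 17 to 32 counts.

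None of the 3 tested segments passed the threshold (edgeR, 0 higher and 0 lower, 0 at an unadjusted p under 0.05), where 8.95% of the 13290 genes tested passed in either direction, 4.82% higher and 4.13% lower. Likewise 0 of the 3 had groups that did not overlap, as 14.5% of all genes tested did, 7.07% with RGX-104 higher and 7.45% with it lower. DESeq2 and limma-voom also called 0, although DESeq2 gave no adjusted p for Trav14d-1_1. The median log2 change of the 3 was 0.11, against 0.00 over all genes tested. With no filter on low counts, the 13 segments with at least 1 count could be fitted, and the smallest unadjusted p was 0.0642, for Trav14d-3-dv8_1 (adjusted p = 0.356).

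Genes that pair with the receptor chains or act on their loci were read from the same fit. Of 21 such genes, 17 were tested, of which 4 rose (Dntt, Gata3, Lat and Lck) and 4 fell (Cd247, Cd3e, Cd8b1 and Cd8a). That is 47.1% of those tested, with a median log2 change of -0.02, beside the 8.95% called over all genes. The list was chosen with earlier results of these data known, so the share is a description.

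Of the CD3 complex, 2 genes fell and 2 did not pass the test. Cd247, which encodes the zeta chain, fell by 0.18 ± 0.03 on the log2 scale (SE; edgeR adjusted p = 4.34e-05), with means of 222 ± 4.47 CPM in control and 196 ± 3.44 in RGX-104 libraries (SD, n = 4). Cd3e, the epsilon subunit, was at 316, 318, 339 and 328 CPM in control replicates 1 to 4 and at 286, 304, 304 and 284 CPM in RGX-104 replicates 1 to 4, so all RGX-104 libraries lay below all control libraries. Its log2 change was -0.14 ± 0.03 (SE; edgeR adjusted p = 0.00295). Cd3d and Cd3g, the delta and gamma subunits, had log2 changes of -0.01 ± 0.03 and -0.02 ± 0.03 (SE) and did not pass (edgeR adjusted p = 0.879 and 0.728). Cd8a fell by 7.73% and Cd8b1 fell by 8.13% (edgeR adjusted p = 0.00273 and 0.00264), and the RGX-104 libraries lay below the control libraries for both. The span of Cd247 overlaps those of Pou2f1, Gm32999 and Gm23402, and without a stated strand setting their reads cannot be told apart. The same limit holds for other called partner genes. Gata3 overlaps 4930412O13Rik and 9230102O04Rik, Lat overlaps Mir7058 and Lck overlaps Mir8119.

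Genes of rearrangement had few or 0 counts apart from Dntt. Rag1 and Rag2, the recombinase genes, had 2 and 0 counts in all, and Ptcra, the surrogate alpha chain of thymocytes, had 6. Dntt, which encodes terminal deoxynucleotidyl transferase and adds bases at the joins between segments, was at 1.49, 1.27, 1.35 and 1.67 CPM in control replicates 1 to 4 and at 2.39, 2.38, 2.32 and 2.23 CPM in RGX-104 replicates 1 to 4. Every RGX-104 library lay above every control library. Its log2 change was 0.69 ± 0.14 (SE; edgeR adjusted p = 0.00156), from 43 to 62 counts in control and 71 to 84 in RGX-104 libraries.

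Among signalling and regulator genes, Gata3, a transcription factor gene, rose by 0.36 ± 0.07 on the log2 scale (SE; edgeR adjusted p = 0.00132), with means of 10.2 ± 0.842 and 13.1 ± 1.18 CPM (SD, n = 4). Lat, an adaptor, and Lck, the kinase that binds CD8, rose by 0.09 ± 0.03 and 0.10 ± 0.03 (log2, SE; edgeR adjusted p = 0.0254 and 0.0395). Neither call held under every alternative, although the log2 changes stayed positive, from 0.09 to 0.12 for Lck and from 0.08 to 0.11 for Lat. Lck did not pass with DESeq2 (adjusted p = 0.0533) or with no filter on low counts (0.0850), and Lat did not pass with no filter (0.0514). Lck passed among the 8 fits that left out a library only without control replicate 1, with adjusted p of 0.0624 to 0.120 in the others, and it has a copy row. Lat did not pass without control replicates 2 or 3 or RGX-104 replicates 2, 3 or 4 (adjusted p = 0.0660 to 0.0986). Zap70, Tcf7, Themis, Runx1, Ets1, Tcf12 and Trat1 did not pass (edgeR adjusted p = 0.547, 0.896, 0.0657, 0.210, 0.516, 0.0531 and 0.0826). Themis passed as higher without control replicate 2 (adjusted p = 0.0255), and Tcf12 as lower without control replicate 1 (adjusted p = 0.0264). Themis also passed with upper quartile scaling, total counts only and no filter (adjusted p = 0.0369, 0.0410 and 0.0237), and Tcf12 with DESeq2 and no filter (0.0481 and 0.0399). Runx3 had 6 to 10 counts and was not tested, and it has a copy row, so its level was not assessed.

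**Figure D4:**
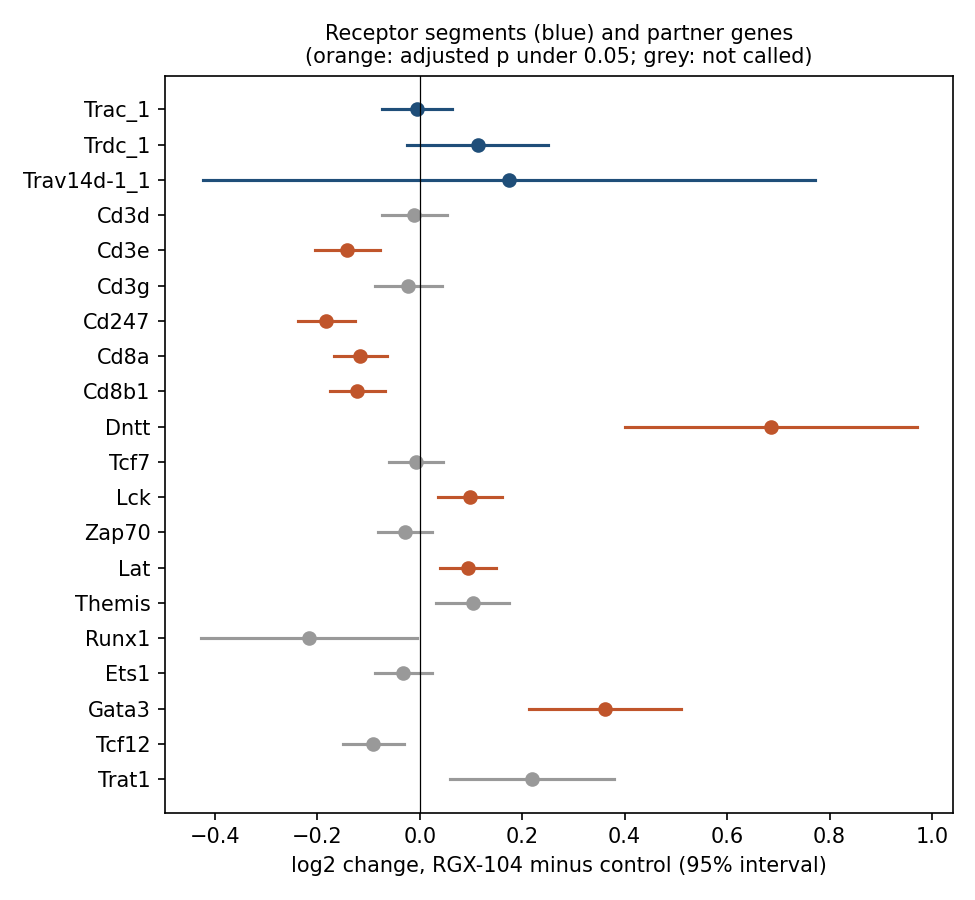
Log2 change with RGX-104 (horizontal axis, RGX-104 minus control) for the 3 tested segment rows and 17 tested partner genes. Points are edgeR estimates and lines their 95% intervals. All 3 segment intervals cross 0, and those of Cd247, Cd3e, Cd8a and Cd8b1 lie below it.

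The counts of Trac_1 were also set against those of its protein partners within each library, as a ratio that needs no scaling between libraries. The ratios were chosen after the changes of the single genes had been seen and restate them on another scale, so they are given without a test. Against Cd3e the ratio was 0.211 to 0.218 in control and 0.225 to 0.252 in RGX-104 libraries. Against Cd247 it was 0.301 to 0.325 and 0.339 to 0.360, against Cd8a 0.0784 to 0.0800 and 0.0831 to 0.0887, and against Cd8b1 0.146 to 0.152 and 0.156 to 0.167. For each of these 4 genes all RGX-104 libraries lay above all control libraries. The log2 differences were 0.14 for Cd3e, 0.18 for Cd247, 0.11 for Cd8a and 0.12 for Cd8b1. Against Cd3d the ratio was 0.300 to 0.308 and 0.295 to 0.323, and against Cd3g 0.299 to 0.310 and 0.296 to 0.331. Both of these overlapped. The 6 ratios share the Trac_1 counts, so they are not independent of each other.

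**Figure D5:**
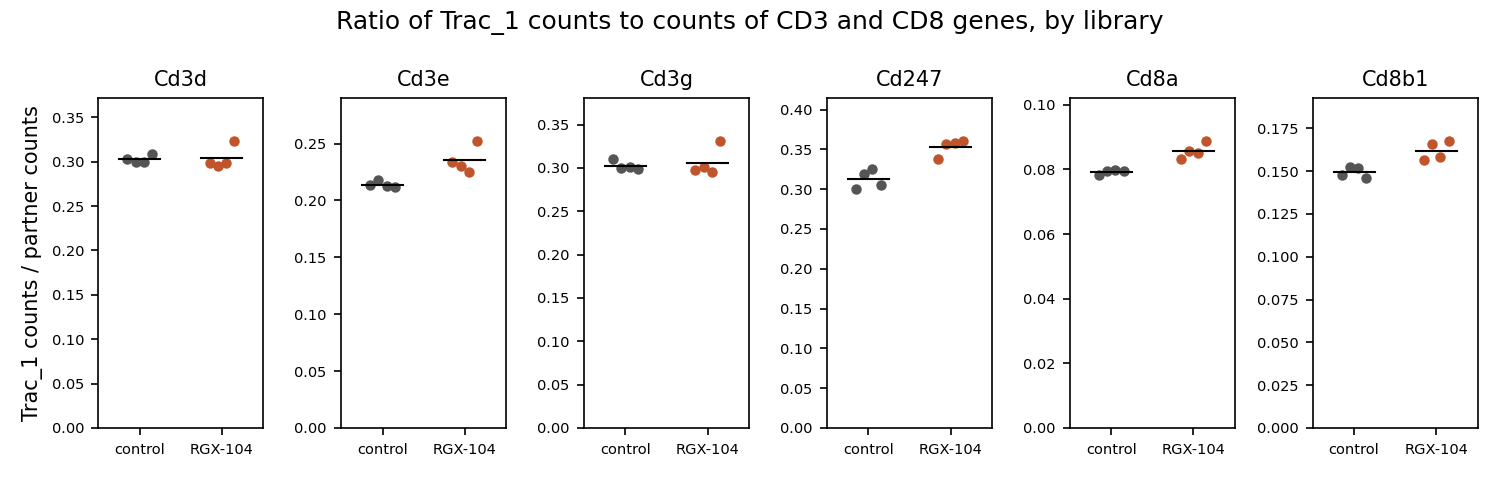
Trac_1 counts divided by the counts of each partner gene (vertical axes from 0, separate scale per panel) in 4 control and 4 RGX-104 libraries. Points are libraries and lines are group means. The groups are apart for Cd3e, Cd247, Cd8a and Cd8b1 and overlap for Cd3d and Cd3g.

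Per kilobase of annotated exon, Trac_1 at 74.4 ± 2.09 CPM lay close to Cd3e at 79.7 ± 2.59 and Cd3g at 70.4 ± 2.85 CPM in control libraries (SD, n = 4). Cd3d was higher at 127 ± 4.57 CPM and Cd247 lower at 41.8 ± 0.839 CPM. The length of the Trac gene on chromosome 14 stands in for that of the counted copy, and Trac_1 may not hold all Trac reads. Each length is that of all annotated exons of the gene merged, 935 bases for Trac and 4080 for Cd3e. It can exceed the length of the RNA present, which lowers the level per kilobase. Without division by length, control means were 69.5 CPM for Trac_1, 325 for Cd3e and 230 for Cd3g. The closeness and the order per kilobase are therefore uncertain.

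Marker lists of other cell types were summed in each library. Dendritic and myeloid markers ranged from 76.0 to 82.5 CPM in the control group and from 86.2 to 89.2 CPM in the RGX-104 group, so the groups did not overlap. Of these 10 genes 5 were tested and 1 rose, Cd74, an antigen presentation gene, from 25.1 to 27.8 CPM in control and 32.3 to 34.1 CPM in RGX-104 libraries (edgeR adjusted p = 6.12e-06). Cst3, a protease inhibitor gene, made up most of the rest of the sum at 45.6 to 50.6 and 48.1 to 49.2 CPM. Its groups overlapped, and it did not pass (edgeR adjusted p = 0.817). The sum is therefore mainly that of Cd74 and Cst3 and need not measure the amount of dendritic or myeloid cells. Over all genes tested, 8.95% passed in either direction and 14.5% had groups that did not overlap. Zbtb46, a transcription factor gene of dendritic cells, was at 2.494 to 3.418 CPM in control and 3.196 to 4.303 CPM in RGX-104 libraries and did not pass (edgeR adjusted p = 0.0552). Itgax, which encodes CD11c, had 17 to 34 counts and Flt3, a receptor gene, 4 to 17, while Fcer1g had 7 to 13, Tyrobp 1 to 8, Spi1 2 to 6, Lyz2 0 to 5 and Csf1r 1 to 2. B cell markers summed to 3.96 to 5.45 and 4.36 to 4.70 CPM, and NK cell markers to 46.4 to 51.6 and 47.1 to 56.4 CPM. The genes listed for invariant NKT cells summed to 2.45 to 3.84 and 3.59 to 4.02 CPM. A single gene made up nearly all of each of these last 3 sums, Cd79b for B cells, Eomes for NK cells and Cd1d1 for the NKT list. Cd1d1 encodes a molecule that presents antigen to NKT cells, so its level is not a measure of such cells. Eomes, which CD8+ T cells also express, was at 45.8 to 51.2 and 46.7 to 55.9 CPM, and Cd1d1 at 2.45 to 3.81 and 3.56 to 3.99 CPM. Ncr1 had 0 counts, and Zbtb16 and Klrb1c had 0 to 1. The part of the dendritic markers in the changes of the partner genes was not tested.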

How the data were processed

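The deposited table holds raw read counts, whole numbers that the authors left unscaled. The submitters' processing notes list DESeq2 1.4, R 4.1.0, STAR 2.7.5 and cutadapt 2.10, and GRCm38 as the build. Counter, annotation and strand setting: not given in the sources used here. Control columns matched numbered samples. RGX-104 columns showed only their group, so RGX-104 replicates are numbered by column.

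Genes were kept by filterByExpr (minimum count 10, minimum total 15), which left 13290. Treatment was the only term of a robust quasi-likelihood fit (edgeR 4.0.16, R 4.3.3), after scaling by the trimmed mean of M values (TMM). Adjustment was by Benjamini-Hochberg over all genes tested, with a threshold of 0.05. CPM used TMM-scaled library sizes, and SE came from the F statistic. Shares were not tested. Alternatives were DESeq2 1.42.0, limma-voom (limma 3.58.1), other scalings and filters, a fold of 1.2 and leaving out each library. The fit was tested on simulated data.

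The members and lists were chosen with earlier results of these data known. Segments and partner genes were named by rule: constant genes, Trav14 and Trbv12 rows, the highest rows of a class, called segments and the partner list. Other low V rows are named to account for every member.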

Additional observations from a re-analysis of the deposited data

Results flagged for a closer look

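The check covered 62 groups of 4 libraries, for the levels of tested segments and partner genes and the shares. In 1 group a library was flagged as apart relative to the spread of the others. About 3.1 such groups would arise by chance. Zap70, a kinase gene of receptor signalling, reached 204.6 CPM in RGX-104 replicate 3, while the other RGX-104 libraries lay at 203.7 to 203.8 CPM. That gap is small beside the range of the control libraries, 206.4 to 211.0 CPM. No segment row held such a value.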

How the results depend on the processing

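No segment was called higher or lower under any of the 16 alternatives to the main test, although Trav14d-1_1 had no adjusted p with DESeq2 and was not tested at a minimum count of 30. Trdc_1 kept a positive log2 change in all 16, from 0.09 to 0.16. The log2 change of Trac_1, near 0, turned positive with upper quartile scaling (0.0061), with total counts only (0.0050), without control replicate 3 (0.012) and without RGX-104 replicate 1 (0.010). In the same way Cd3d turned positive with upper quartile scaling (0.0012), total counts only (7.6e-05), without control replicate 3 (0.012) and without RGX-104 replicate 4 (0.0031), as did Tcf7 (0.0040, 0.0030 and, without control replicate 4, 0.0033). Over the fits that left out 1 library, Cd3d ranged from -0.031 to 0.012, Tcf7 from -0.016 to 0.0033 and Trac_1 from -0.021 to 0.012. None of these was called. The ratio of Trac_1 to Cd3d had a log2 difference of -2.0e-04, -2.1e-04 and -0.025 without control replicates 2 and 3 and RGX-104 replicate 4, and that to Cd3g -0.021 without the last, with highest values of 0.019 and 0.032. Those to Cd3e, Cd247, Cd8a and Cd8b1 stayed positive without any 1 library.

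When a change had to exceed a fold of 1.2, 65 genes passed as higher and 45 as lower, with 0 partner genes in either direction, and Dntt had an adjusted p of 0.0616. Leaving out 1 library gave 2 to 4 partner genes higher and 4 to 5 lower, with 2 higher without control replicate 3 or without RGX-104 replicate 2, 3 or 4. Upper quartile scaling and total counts only each gave 5 higher and 4 lower, and DESeq2 and no filter each gave 3 higher and 5 lower. Without the 100 genes with most counts in the denominator, the segments held 0.00963% of counts in control and 0.00976% in RGX-104 libraries. Without the constant genes, an alternative added after the data were seen, they held 7.48e-05% and 7.44e-05%. Trav14d-1_1 alone held 50.9% and 58.2% of V counts, and the summed family 72.2% and 81.1%. Every segment row had a numbered suffix, so leaving such rows out gives no value. No paired analysis was possible because the sample titles number control and RGX-104 samples without a shared number. Depth limits the V segments, at 17 to 32 counts per library.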
